A study of Mus musculus with 15 samples.

Results

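The nuclear genes for subunits of the mitochondrial respiratory chain were followed in whole liver of adult male mice whose own, or whose father's, early nutrition had been altered. They were taken by symbol: every probe set annotated to a single gene whose symbol begins with Ndufa, Ndufb, Ndufc, Ndufs, Ndufv, Uqcr, Cox4, Cox5, Cox6, Cox7 or Cox8, or is Sdha, Sdhb, Sdhc, Sdhd or Cycs, with the Ndufaf assembly factors left out. This gave 142 probe sets for 66 of the 18193 genes measured, and where a gene had several, the one with the highest mean was used. Complex I had 34 of them, complex II 4, complex III 8, complex IV 19 and cytochrome c 1.

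The study asked whether the liver expression of males malnourished around birth is found again in their sons. There were 15 Affymetrix Mouse Genome arrays, each of a pool of livers (3 a pool, as the titles are read here), in 5 groups of 3 pools. IUGR F1 mice were underfed by 50% before birth, that is, restricted through their mothers during gestation, and ON F1 mice were overfed while suckling. Mice of the IUGR F2 and ON F2 groups were the male offspring of IUGR and ON mice, and were not themselves given either treatment by any label. Control pools mixed livers of first- and second-generation control males, so neither generation had a control of its own. The labels give no strain and no age beyond adult, and do not say whether pools of a group came from separate litters, and p-values here cover only how these pools vary. Levels are on the log2 scale of RMA (robust multi-array average), where 1 unit is a doubling, and differences are log2 differences with the standard error from limma. Genes are said to pass when their limma adjusted p, over all 18193 genes, is under 0.05.

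The respiratory chain sits in the inner mitochondrial membrane. Complex I takes electrons from NADH and complex II from succinate, complex III passes them to cytochrome c, and complex IV, cytochrome c oxidase, hands them to oxygen, while complexes I, III and IV pump the protons that drive ATP synthase. A few core subunits are encoded by mitochondrial DNA and all the genes described here by the nucleus, so both genomes must be expressed together. Hepatocytes are rich in mitochondria, and several complex IV subunits come in a ubiquitous or liver form and a form restricted to heart and skeletal muscle, testis or lung.

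None of the 66 genes passed in any comparison of 2 groups, in the lineage by generation interaction or in the F test over the 5 groups. The differences that did appear were small. Most members lay lower in F2 than in F1 pools of the same lineage: 49 of 66 in ON mice, with a median difference of -0.10, and 49 of 66 in IUGR mice, with a median of -0.061. The medians of all genes, given below, were also negative in both comparisons, though smaller in size. After centring each array on the median of its brighter genes these counts were 46 and 49. In ON mice ON F1 pool 7 stood high and ON F2 pools 13 and 14 low for the chain as a whole. Without each of these in turn 47, 48 and 50 members still lay lower, while the median moved. Fewer were then lower at an unadjusted p under 0.05 (4, 3 and 4), where 12.7% of all genes were with all pools. With the clock score, described below, as covariate 39 lay lower in ON mice, with a median of -0.0251. In IUGR mice 40 lay lower without IUGR F1 pool 4. The gene nearest the threshold was Ndufb7, an accessory subunit of the membrane arm of complex I, at -0.32 ± 0.08 in ON F2 against ON F1 pools (limma adjusted p = 0.0517).

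Of the 66 genes, 55 had a mean of at least 7, between 9.39 and 13.42 with a median of 11.07, and the lowest of the 55 stood at the 91.2 percentile of all genes by array level. Levels of different probe sets are not a measure of relative abundance, since each probe binds with its own strength. In complex I the probe set of Ndufb11, a membrane-arm subunit, was highest at 12.16, and that of Ndufb4 was lowest at 3.34. Complex II ran between Sdhb, its iron-sulfur subunit, at 11.78 and Sdhc, a membrane anchor, at 9.80. Complex III ran between Uqcrb at 13.42 and Uqcrc2, a core protein, at 10.78, and complex IV between Cox6a1, the ubiquitous form of subunit VIa, at 13.16 and Cox7b2 at 3.20. The other 11 genes had a mean under 7, and they are mostly the tissue-restricted forms of complex IV. Ndufb4, Ndufb1 and Cox7c were also in this range, at 3.34, 6.56 and 4.70, although they encode general subunits. A further 10 probe sets of chain genes carry several symbols and were not used, those of Ndufb4 among them. For this reason the complex I subunits Ndufa11 and Ndufs6 are not among the 66. Dim probe sets are compressed towards background by RMA, so true differences of these 11 genes may be understated, and those printed may be noise near background. The median SD within groups was 0.091 for the 55 brighter genes, against 0.113 for all genes with a mean of at least 7 and 0.128 for all genes.

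**Figure D1:**
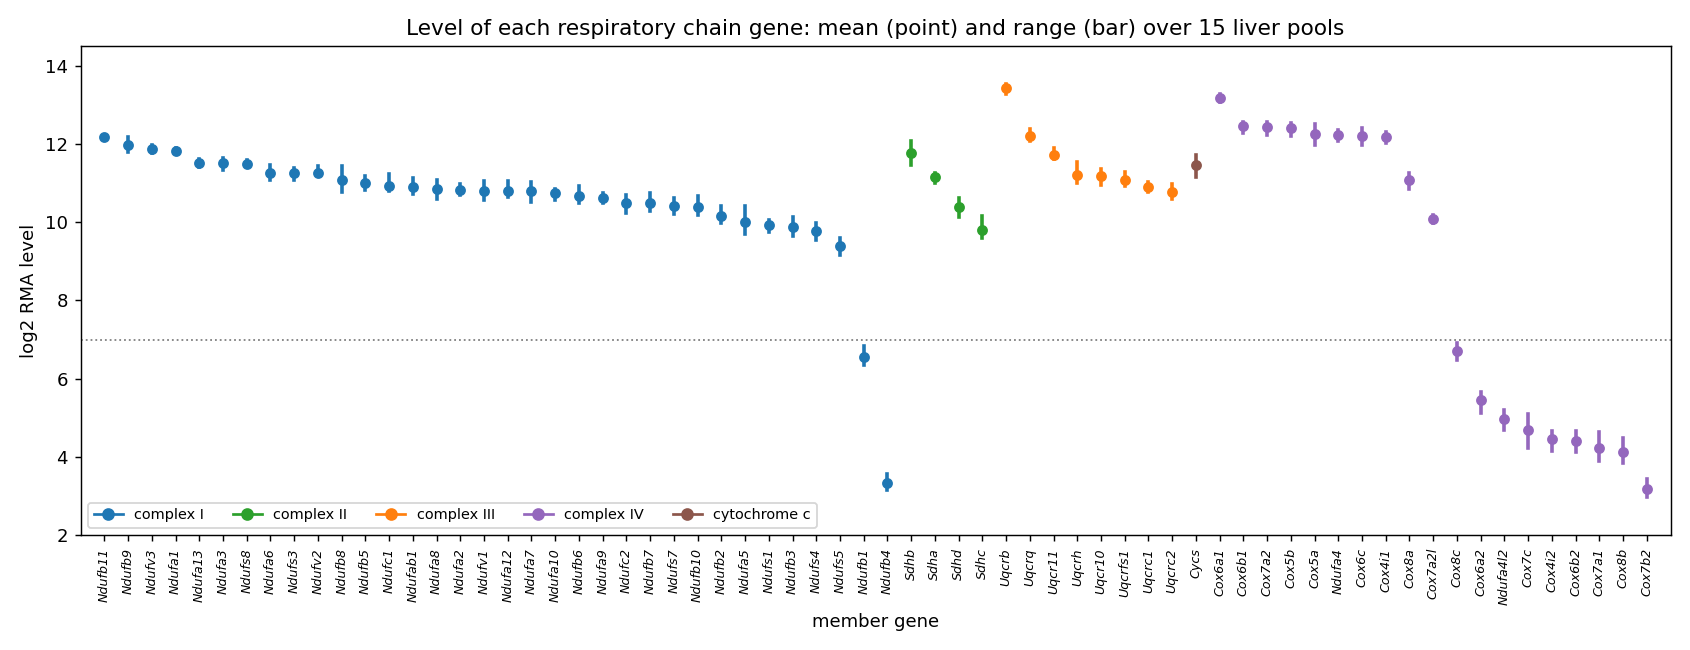
Log2 RMA level (vertical axis) of the 66 genes (horizontal axis), ordered within each complex, with the mean over 15 pools as a point and the range over pools as a bar. The dotted line marks a level of 7. Of the genes, 55 lie above it and 11 below, and heights of different genes are not relative abundances.

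The isoform pairs of complex IV each have a probe set of their own, so their levels are given as read and not as amounts. Cox4i1, the general form of subunit IV, averaged 12.17 and Cox4i2, a lung form, 4.46. Cox6a1 averaged 13.16 and Cox6a2, the heart and muscle form, 5.45. For subunit VIb the general Cox6b1 averaged 12.46 and the testis form Cox6b2 4.42. Cox7a2, the liver and general form, averaged 12.42, and Cox7a1, the heart and muscle form, 4.24. Cox8a averaged 11.06, the muscle form Cox8b 4.14 and the testis form Cox8c 6.70. Ndufa4, named for complex I but a subunit of complex IV, averaged 12.21, and its relative Ndufa4l2, known as a hypoxia-induced gene, 4.96.

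To show sequence for the members that come up most below, promoter windows were read from RefSeq (GRCm38.p6), 250 bases before to 50 after the start of the gene. A window was found for 53 of the 66 genes. Short core letters of 4 factors linked to nuclear control of the chain were searched on both strands, and a match is a description of letters only. These cores were settled on after the shares of longer forms had been seen. CATGCGC, of nuclear respiratory factor 1 (NRF1), was in a window of 10 of the 53 genes (18.9%), against 4.41% of all 27025 genes with a window. CCGGAAG, of ETS factors such as GABP, was in 11 (20.8%), against 9.93% of all genes. ATGGCGG, of YY1, was in 7 (13.2%), against 4.69%, and AAGGTCA, of the oestrogen-related receptors, was in 4 (7.55%), against 5.38%. The NRF1, ETS and YY1 letters were found only among the 46 brighter members with a window, and in 0 of the 7 dimmer ones. The 27025 genes were not limited to those measured here. The windows were not matched for level or base composition.

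The windows of Ndufb7 (chr8:83566508-83566807, plus strand) and Ndufs4 (chr13:114388045-114388344, minus strand) are printed because both genes had the smallest p in the F test, and those of Uqcrc1 (chr9:108936398-108936697, plus strand) and Cox6a1 (chr5:115348909-115349208, minus strand) because each holds the NRF1 letters on both strands at overlapping places. Capitals mark motif letters in either orientation, which are those of ETS factors in Ndufb7, of YY1 in Ndufs4, of NRF1 in Uqcrc1, and of NRF1 and further on ETS factors in Cox6a1.
Ndufb7: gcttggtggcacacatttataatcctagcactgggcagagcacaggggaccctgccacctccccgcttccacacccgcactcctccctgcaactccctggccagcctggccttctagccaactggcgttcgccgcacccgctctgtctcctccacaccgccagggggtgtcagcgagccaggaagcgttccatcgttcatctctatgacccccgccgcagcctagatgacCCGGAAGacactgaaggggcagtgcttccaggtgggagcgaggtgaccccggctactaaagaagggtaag
Ndufs4: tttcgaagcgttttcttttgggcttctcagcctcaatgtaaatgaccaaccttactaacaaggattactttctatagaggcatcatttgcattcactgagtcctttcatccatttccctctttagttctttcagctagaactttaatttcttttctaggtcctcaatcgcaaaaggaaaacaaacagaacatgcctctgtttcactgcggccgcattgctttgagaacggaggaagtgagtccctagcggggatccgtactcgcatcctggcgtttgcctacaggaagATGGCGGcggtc
Uqcrc1: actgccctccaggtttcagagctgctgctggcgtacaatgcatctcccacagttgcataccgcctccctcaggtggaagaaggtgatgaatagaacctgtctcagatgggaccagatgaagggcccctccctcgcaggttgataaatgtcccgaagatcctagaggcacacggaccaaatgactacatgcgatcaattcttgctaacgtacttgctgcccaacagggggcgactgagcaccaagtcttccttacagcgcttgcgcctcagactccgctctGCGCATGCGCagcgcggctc
Cox6a1: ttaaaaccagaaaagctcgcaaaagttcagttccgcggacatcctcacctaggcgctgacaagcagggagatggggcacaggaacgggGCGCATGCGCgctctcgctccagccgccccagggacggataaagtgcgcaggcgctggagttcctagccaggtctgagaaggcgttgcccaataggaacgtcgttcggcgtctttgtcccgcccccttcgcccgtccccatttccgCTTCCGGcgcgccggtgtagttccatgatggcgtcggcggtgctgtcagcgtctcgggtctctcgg

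In IUGR F1 against control pools the median difference of the 66 genes was 0.025, with 43 higher and 23 lower. It was 0.0768 with 12 lower after centring each array on its brighter genes (median centring) and 0.0604 with 18 lower after quantile normalization. This compares with a median of 0.007 for all genes and -0.033 for the 5730 genes with a mean of at least 7. The limma fit passed 0 members, as did 0% of all genes. With an unadjusted p under 0.05, 4 members were higher and 0 lower, where 5.46% and 2.97% of all genes were. The 4 became 1 to 3 when any 1 pool was left out (1 without IUGR F1 pool 6, ON F1 pool 9, IUGR F2 pool 12, ON F2 pool 14 or control pools 1 or 3), 1 with only these groups fitted and 6 after median centring or quantile normalization. The 6 members with the smallest p were Cox6a2, Cox8c, Cox8a, Cox5b, Uqcrc1 and Uqcrc2. Of these, 4 belong to complex IV, which holds 19 of the 66 genes. Cox6a2 and Cox8c are dim tissue-restricted forms, with means of 5.45 and 6.70. Cox6a2 stood at 5.67, 5.51 and 5.53 in IUGR F1 pools, against 5.19, 5.43 and 5.12 in control pools. The groups did not overlap, and the difference was 0.32 ± 0.09 (limma adjusted p = 0.420). A dimmer probe set of Cox6a2 gave -0.096, and in ON F1, IUGR F2 and ON F2 against control pools it gave -0.112, -0.122 and 0.020. Skeletal muscle markers stood 0.43 above the control mean (list median) in IUGR F1 pool 5, where the muscle actin Acta1 reached 7.28. Cox6a2 was at 5.51 there, beside 5.67 and 5.53 in the other IUGR F1 pools. Whether muscle RNA has a part in the Cox6a2 values was not tested.

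Cox5b, a matrix-side subunit of complex IV, stood at 12.54, 12.47 and 12.47 in IUGR F1 pools, against 12.38, 12.36 and 12.28 in control pools. Every IUGR F1 pool lay above every control pool, with a difference of 0.15 ± 0.07 (limma adjusted p = 0.593), and the other 3 bright probe sets of Cox5b gave 0.15, 0.060 and 0.049. Cox8a differed by 0.17 ± 0.08 and, at its other bright probe set, by 0.14 (limma adjusted p = 0.591 for the brighter). Cox8c differed by 0.19 ± 0.09. Of the core proteins of complex III, Uqcrc1 was at 0.14 ± 0.07 and Uqcrc2 at -0.16 ± 0.09, but the other bright probe set of Uqcrc2 gave 0.011. Cytochrome c itself, Cycs, lay at 11.38, 11.47 and 11.27 in IUGR F1 pools, against 11.49, 11.53 and 11.54 in control pools, and these did not overlap either (-0.15 ± 0.12). Its other bright probe sets gave 0.011 and -0.072. Across the members 6 were higher and 4 lower without overlap, where 8.59% and 5.89% of all genes were. Among 33 members with several probe sets of mean at least 7, only 16 kept the same sign across them.

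ON F1 pools gave a like median, 0.022, with 40 members higher and 26 lower. It turned to -0.0285 without ON F1 pool 7 and to -0.031 with the clock score described below as a covariate, and it was 0.0645 with 11 lower after median centring, 0.0437 with 16 lower after quantile normalization and 0.051 with 17 lower with the actin 3'/5' difference as covariate. By limma 0 members passed, against 0.022% of all genes. At an unadjusted p under 0.05, 3 were higher and 0 lower, where 8.97% and 5.03% of all genes were, and 0 were higher without control pool 3, with the actin 3'/5' difference as covariate or with only these groups fitted, and 1 with the clock score. Complex IV had a median of 0.10 over 19 genes, 14 of them higher, and of 0.065 over its 10 brighter genes, beside 0.013 for complex I, 0.022 for complex II and -0.001 for complex III, the last becoming 0.042 after median centring and 0.035 after quantile normalization. Cox6a1 stood at 13.26, 13.26 and 13.25 in ON F1 pools, against 13.16, 13.07 and 13.06 in control pools. The ON F1 pools lay together and above every control pool, at 0.16 ± 0.06 (limma adjusted p = 0.284), but the other probe set of Cox6a1 gave -0.019. Ndufb7 differed by 0.19 ± 0.08 and Cox6a2 by 0.22 ± 0.09. Cox8a and Cox5b, named for IUGR F1, differed here by 0.16 ± 0.08 and 0.14 ± 0.07, and Uqcrc2 by -0.15 ± 0.09. The other bright probe sets of Cox5b gave 0.17, 0.007 and -0.022, and that of Uqcrc2 gave 0.051. Both F1 comparisons use the same control pools. Without overlap, 4 members were higher and 0 lower, where 10.2% and 6.23% of all genes were. Only 13 of 33 members with several probe sets of mean at least 7 kept the same sign across them.

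**Figure D2:**
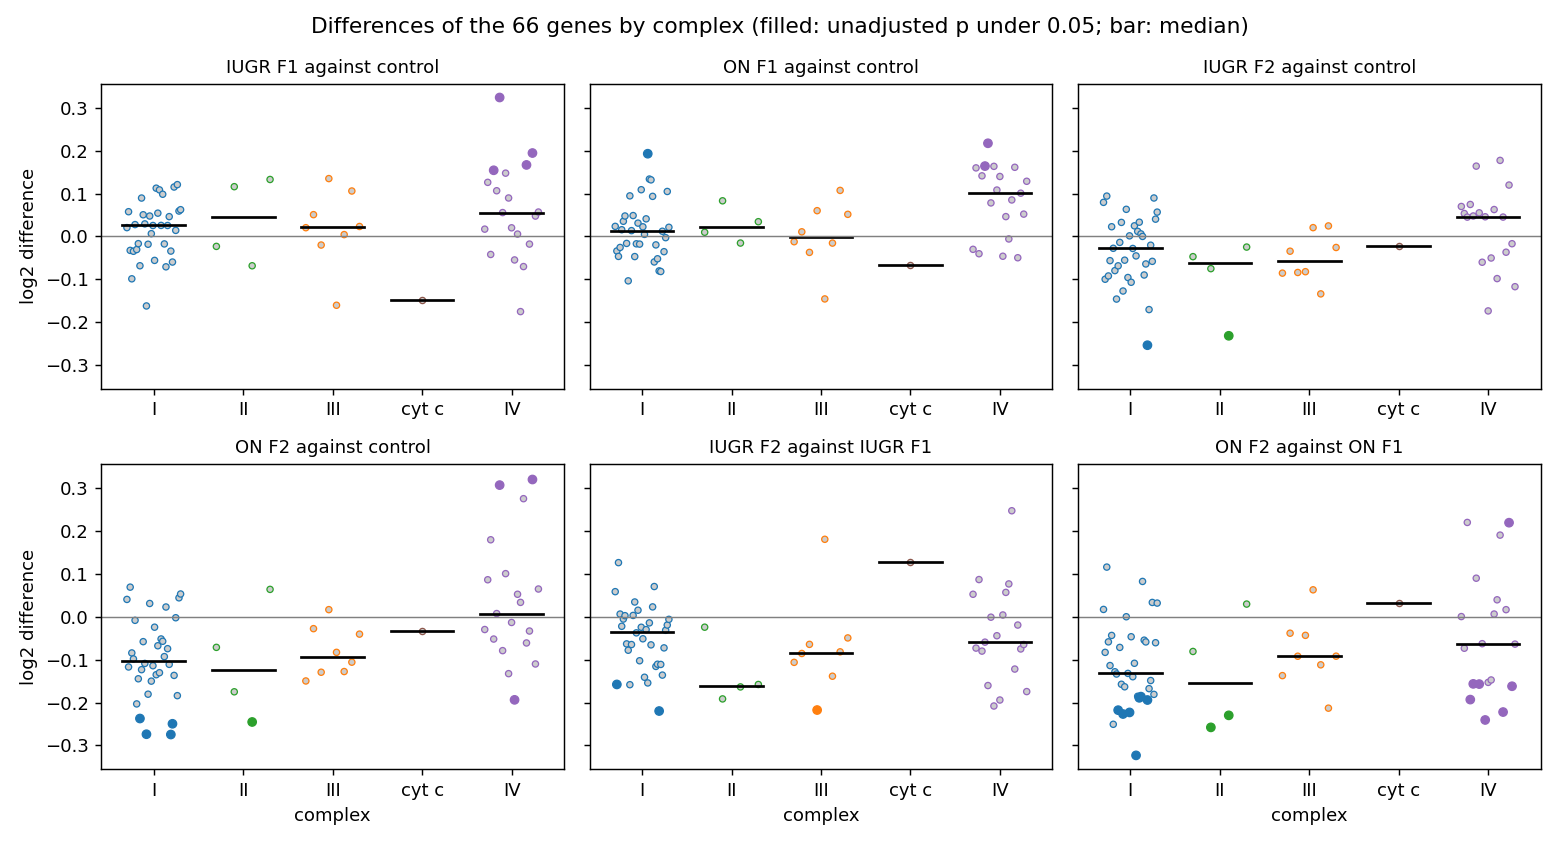
Log2 difference (vertical axis) of each of the 66 genes, grouped by complex (horizontal axis), in 6 comparisons. Filled points have an unadjusted p under 0.05 and bars are medians, which in ON F2 against ON F1 pools were -0.13, -0.155, -0.092 and -0.064 for complexes I to IV. In ON F2 against control pools the median of all 66 genes was -0.069, and 0.0173 after median centring.

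In IUGR F2 against control pools the members had a median of -0.025, 27 higher and 39 lower, which became 0.0029 after quantile normalization and 0.0234, with 26 lower, after median centring. All genes had a median of -0.01 and the genes with a mean of at least 7 one of -0.028. The limma fit passed 0 members, against 0% of all genes. With an unadjusted p under 0.05, 0 were higher and 2 lower, where 2.51% and 4.55% of all genes were. The 2 became 1 without IUGR F2 pools 11 or 12 or control pool 1, and after either scaling. Ndufs4, an accessory subunit of the NADH-oxidising part of complex I whose loss causes complex I deficiency in mice, stood at 9.69, 9.62 and 9.60 in IUGR F2 pools, against 9.93, 9.96 and 9.79 in control pools. All 3 IUGR F2 pools lay below all control pools, at -0.25 ± 0.08 (limma adjusted p = 0.647). The next probe set of Ndufs4, with a mean of 6.90, gave 0.11. Sdhc stood at 9.79, 9.66 and 9.60 in IUGR F2 pools, against 9.96, 9.82 and 9.96 in control pools. These did not overlap, at -0.23 ± 0.10 (limma adjusted p = 0.689), and the dimmer probe set of Sdhc gave -0.19.

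The complexes of IUGR F2 pools did not all lie to one side of control. All 4 genes of complex II and all 7 of the quinone-binding stem of complex I lay lower than control, with medians of -0.061 and -0.058, and 6 of 8 genes of complex III lay lower, with a median of -0.059. Of the 9 general forms of complex IV 8 lay higher, with a median of 0.048. After median centring the count was also 8, while the lower counts were then 2 of 4 for complex II, 4 of 7 for the stem and 4 of 8 for complex III. Cox7c, counted among the 8, has a mean of only 4.70. All these counts are of the probe set used for each gene. Of 33 members with several probe sets of mean at least 7, 12 had the same sign at all of them here. Ndufs5, a membrane-arm subunit, differed by -0.17 ± 0.09, Cox6a2 by 0.16 ± 0.09, Uqcrfs1, the Rieske iron-sulfur protein of complex III, by -0.13 ± 0.09, and Ndufa10, of the membrane arm, by -0.10 ± 0.07. Without overlap, 3 members were higher and 9 lower, where 5.29% and 8.12% of all genes were.

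ON F2 pools lay lower than control for 48 of 66 members and higher for 18, with a median of -0.069, which was 0.0173 after median centring, with 28 lower, and -0.0402 after quantile normalization. The genes with a mean of at least 7 had a median of -0.077. By limma 0 members passed, against 0% of all genes. At an unadjusted p under 0.05, 2 were higher and 6 lower, where 5.89% and 9.25% of all genes were. The 6 became 1 without ON F2 pool 13, 2 without ON F2 pool 14, 12 without ON F2 pool 15, 3 without control pool 1, 4 without control pool 2, 1 after median centring, 2 after quantile normalization and 3 with the clock score. Complexes I, II and III had medians of -0.103, -0.123 and -0.094. Complex IV had one of 0.008, and of -0.056 over its brighter genes. After median centring complexes I to III were at -0.017, -0.037 and -0.008, and after quantile normalization at -0.056, -0.090 and -0.048. All 7 stem genes and 17 of 20 membrane-arm genes of complex I lay lower, which became 5 and 11 after median centring and 6 and 15 after quantile normalization. Of 33 members with several probe sets of mean at least 7, 21 had the same sign at all of them in this comparison.

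Ndufs4 was again low, at 9.55, 9.62 and 9.68 in ON F2 pools, against the control values above. No ON F2 pool reached a control pool (-0.27 ± 0.08, limma adjusted p = 0.168), and the next probe set gave 0.099. Sdhc stood at 9.64, 9.63 and 9.75 in ON F2 pools, also below all control pools, at -0.25 ± 0.10 (limma adjusted p = 0.274). Its dimmer probe set gave -0.12. Both F2 comparisons share their control pools. Ndufb1 stood at 6.36, 6.40 and 6.49 in ON F2 pools, against 6.61, 6.77 and 6.68 in control pools, a difference of -0.27 ± 0.10 without overlap. Ndufs5 differed by -0.25 ± 0.09 and Cox7a2 by -0.19 ± 0.08. Against this direction, the testis form Cox8c stood at 6.88, 6.91 and 6.83 in ON F2 pools, against 6.53, 6.66 and 6.47 in control pools. It did not overlap and differed by 0.32 ± 0.09 (limma adjusted p = 0.148), with 0.38 at its dimmer probe set. Cox6a2 stood at 5.43, 5.58 and 5.65 in ON F2 pools, so that pool 13 equalled control pool 2 to the digits printed, and differed by 0.31 ± 0.09 (limma adjusted p = 0.160). Without overlap, 3 members were higher and 9 lower, where 8.95% and 12.1% of all genes were.

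**Figure D3:**
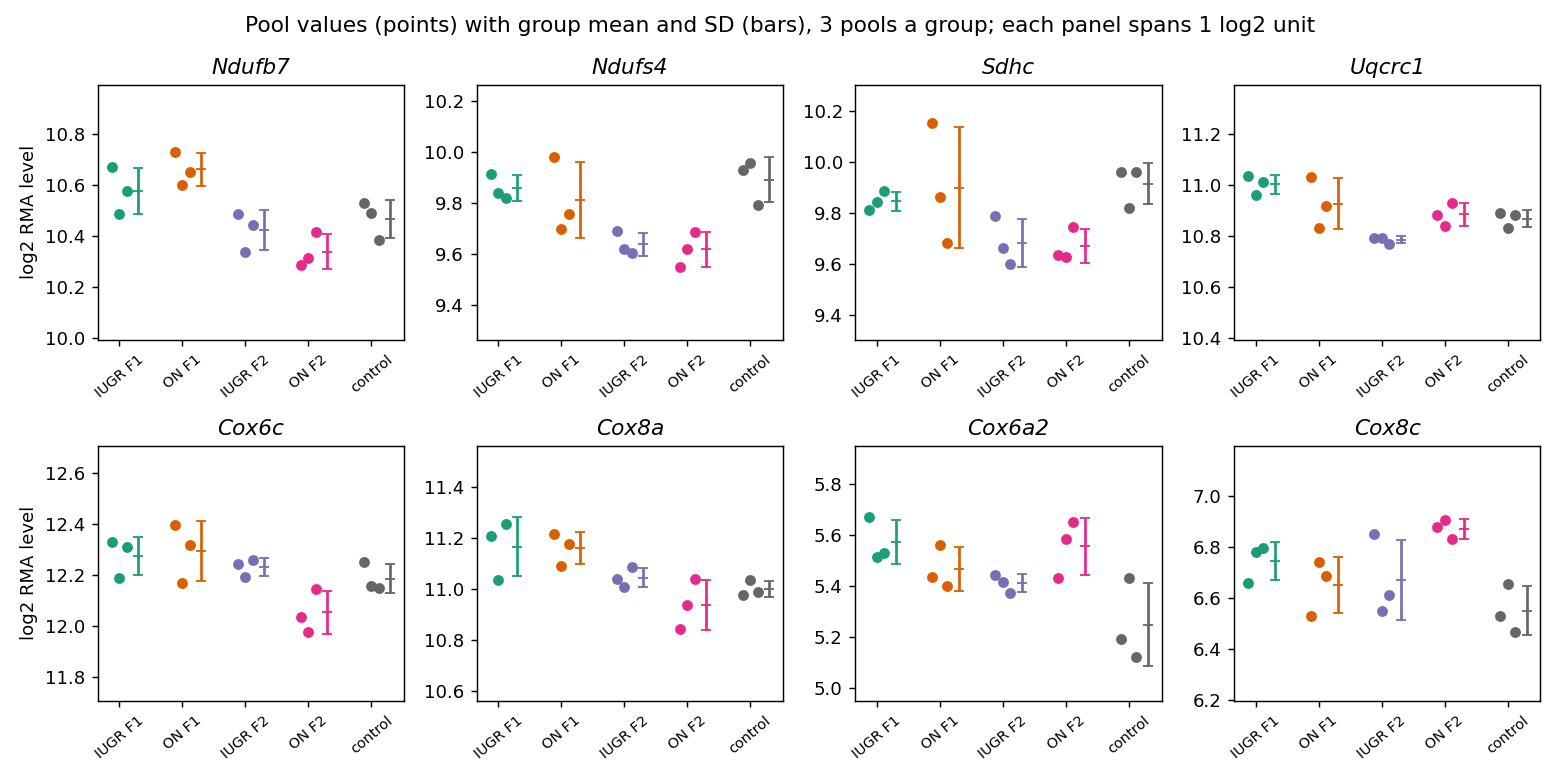
Log2 RMA level (vertical axis) of 8 named genes in each pool, by group (horizontal axis), with group mean and SD over 3 pools at the right of the points. Ndufs4 lies between 9.55 and 9.69 in the F2 pools and between 9.79 and 9.96 in the control pools, and Cox8c lies between 6.83 and 6.91 in the ON F2 pools.

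The comparison of F2 with F1 in ON mice shares no arrays with that in IUGR mice, and the median was below 0 in both. In ON F2 against ON F1 pools the median was -0.10, 17 higher and 49 lower, against -0.029 for all genes and -0.024 for the 2063 genes with a mean of at least 9, which match the members better in level. It was -0.0562 after median centring, -0.0889 after quantile normalization, -0.0251 with the clock score as covariate, -0.042 without ON F1 pool 7 and -0.152 without ON F2 pool 15. The limma fit passed 0 members, against 1.43% of all genes, or 261 genes. With an unadjusted p under 0.05, 1 member was higher and 15 lower, where 6.6% and 12.7% of all genes were. The 15 became 4 without ON F1 pool 7, 3 without ON F2 pool 13, 4 without ON F2 pool 14, 23 without ON F2 pool 15, 4 after median centring, 9 with the mean of probe sets, 3 with only these groups fitted and 2 with the clock score as covariate. Without overlap, 1 member was higher and 9 lower, where 7.41% and 14% of all genes were. The sign was the same across probe sets for 22 of 33 members with several of mean at least 7.

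Ndufb7 stood at 10.29, 10.32 and 10.42 in ON F2 pools, against 10.73, 10.60 and 10.65 in ON F1 pools. Every ON F2 pool lay below every ON F1 pool, and the 95% interval of the difference ran between -0.49 and -0.16. Its other probe set, also bright, gave -0.30. Control pools stood at 10.53, 10.49 and 10.38, below every ON F1 pool and overlapping the ON F2 pools. Ndufb7 passed in 3 alternatives, with a limma adjusted p of 0.0489 for the mean of its probe sets, 0.0367 among genes with a mean of at least 5 and 0.0387 with a trend in the moderation. With the clock score as covariate it was -0.24 ± 0.10 (limma adjusted p = 0.529). Cox6c, a general subunit of complex IV, stood at 12.03, 11.98 and 12.14 in ON F2 pools, against 12.40, 12.17 and 12.32 in ON F1 pools. These did not overlap, at -0.24 ± 0.08 (limma adjusted p = 0.118), but its other probe set gave 0.098. Cox8a stood at 10.84, 10.94 and 11.04 in ON F2 pools, against 11.22, 11.09 and 11.18 in ON F1 pools. The groups were apart, at -0.22 ± 0.08 (limma adjusted p = 0.143), and its other bright probe set gave -0.28.

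Cox5b differed by -0.19 ± 0.07, and all 4 of its bright probe sets lay lower in ON F2 pools. Ndufa8, a membrane-arm subunit, differed by -0.22 ± 0.09. Sdhb stood at 11.47, 11.57 and 11.80 in ON F2 pools, against 12.07, 11.73 and 11.81 in ON F1 pools. Its groups overlapped, since ON F2 pool 15 lay above ON F1 pool 8, and it differed by -0.26 ± 0.10 (limma adjusted p = 0.189). Among the 10 brighter genes of complex IV 7 lay lower, with a median of -0.157, while the 7 tissue-restricted forms had a median of 0.017.

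In IUGR F2 against IUGR F1 pools the median was -0.061, 17 higher and 49 lower, against -0.0285 for all genes and 0.0012 for genes with a mean of at least 9. It lay between -0.0853 and -0.0343 when any 1 pool was left out, and was -0.0635 after median centring and -0.0752 with the clock score as covariate. By limma 0 members passed, against 0.011% of all genes, and at an unadjusted p under 0.05 0 were higher and 3 lower, where 4.28% and 7.16% of all genes were. The 3 were 1 without IUGR F1 pool 4 or without IUGR F2 pool 12, 5 without IUGR F1 pool 5 or IUGR F2 pool 10, and 6 with the clock score. Uqcrc1 stood at 10.79, 10.79 and 10.77 in IUGR F2 pools, against 11.04, 10.96 and 11.01 in IUGR F1 pools. The groups lay apart with little spread in either, at -0.22 ± 0.07 (limma adjusted p = 0.281). Ndufs4 differed by -0.22 ± 0.08 (0.22 at its next probe set), Ndufa10 by -0.16 ± 0.07, Ndufb7 by -0.15 ± 0.08 and Ndufa4l2 by -0.17 ± 0.09. Uqcrc2 differed by 0.18 ± 0.09, but its other bright probe set gave -0.11. Without overlap, 3 members were higher and 13 lower, where 7.27% and 12% of all genes were. Probe sets of mean at least 7 shared their sign for 17 of the 33 members that have several.

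The lineages were then set against each other. In IUGR F1 against ON F1 pools the median was -0.0023, 29 higher and 37 lower, and it turned positive after quantile normalization (0.0054), median centring (0.0064) and with the clock score (0.0488), and without ON F1 pool 7 it was 0.0525 with 15 lower. The limma fit passed 0 members, against 0.011% of all genes, and at an unadjusted p under 0.05 0 members were higher and 0 lower, where 2.4% and 3.95% of all genes were. Without overlap, 1 was higher and 2 lower, where 4.09% and 5.85% of all genes were. The smallest p belonged to Cox7b2 (-0.17 ± 0.11), Ndufs3, a core subunit of the stem of complex I (0.098 ± 0.071), Ndufa10 (0.092 ± 0.069, and -0.0356 as the mean of its probe sets), Ndufb5 (0.11 ± 0.08), Ndufc1 (-0.11 ± 0.09) and Cox6a2 (0.11 ± 0.09). In IUGR F2 against ON F2 pools the median was 0.041, 46 higher and 20 lower, and it was 0.003 with 31 lower after median centring and -0.0122 with the clock score. The genes with a mean of at least 7 had a median of 0.044. By limma 0 members passed, against 0.0055% of all genes, and at an unadjusted p under 0.05 2 were higher and 1 lower, where 5.37% and 4.77% of all genes were. These counts were 7 and 0 without ON F2 pool 15, and 0 and 0 without ON F2 pool 13 or IUGR F2 pool 12. Without overlap, 4 were higher and 4 lower, where 8.79% and 8.27% of all genes were. Ndufv1, which binds NADH, stood at 10.80, 10.86 and 11.00 in IUGR F2 pools, against 10.56, 10.62 and 10.68 in ON F2 pools. These did not overlap, at 0.27 ± 0.11 (limma adjusted p = 0.410), and its other probe sets gave 0.40 and 0.089. Cox6c differed by 0.18 ± 0.08, Cox8c by -0.20 ± 0.09, Ndufa4l2 by -0.18 ± 0.09, Cox7a2 by 0.14 ± 0.08 and Cox6b1 by 0.13 ± 0.07. Here 24 of 33 members with several probe sets of mean at least 7 kept the same sign across them. In IUGR F1 against ON F1 pools 14 did.

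The difference between those generation effects, the lineage by generation interaction, had a median of 0.047 over the members, and 0 passed by limma, against 0.011% of all genes. At an unadjusted p under 0.05, 0 were higher and 1 lower, Cox8c at -0.29 ± 0.13, where 4.53% and 3.18% of all genes were. The F test over the 5 groups passed 34 genes, or 0.187% of all, and 0 members. At an unadjusted p under 0.05 it held 18% of all genes. Its smallest p among members were those of Ndufb7 (limma adjusted p = 0.148), Ndufs4 (0.172), Cox6a2 (0.1999), Cox8c (0.239), Cox8a (0.253) and Cox5b (0.280). For the 55 brighter genes every 95% interval in the 8 comparisons of 2 groups lay between -0.51 and 0.50.

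Pool by pool, a few pools stood apart for the chain as a whole. The median over the 66 genes, relative to the mean of the control pools, was 0.08, -0.02 and 0.03 in IUGR F1 pools 4 to 6, 0.15, -0.04 and -0.01 in ON F1 pools 7 to 9, 0.00, -0.03 and -0.03 in IUGR F2 pools 10 to 12, -0.15, -0.11 and 0.04 in ON F2 pools 13 to 15, and 0.02, 0.01 and -0.04 in control pools 1 to 3. Pool 7 was thus high and pools 13 and 14 low, while pool 15, of the same group as the low pools, was not. Pool 7 held the highest value of all 15 pools for 31 of the 66 genes, and pools 13 and 14 the lowest for 27 and 10. In pool 7, 47 genes (71.2%) lay above every control pool, where 32.2% of all genes did. In pool 13, 46 genes (69.7%) lay below every control pool, where 28.9% of all genes and 43.1% of those with a mean of at least 7 did. In pool 14 the count was 44 (66.7%), where 33.5% and 52.5% did. In pool 15, 27 genes lay above every control pool and 10 below, where 28.7% and 26.8% of all genes and 18.3% and 41.4% of those with a mean of at least 7 did.

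**Figure D4:**
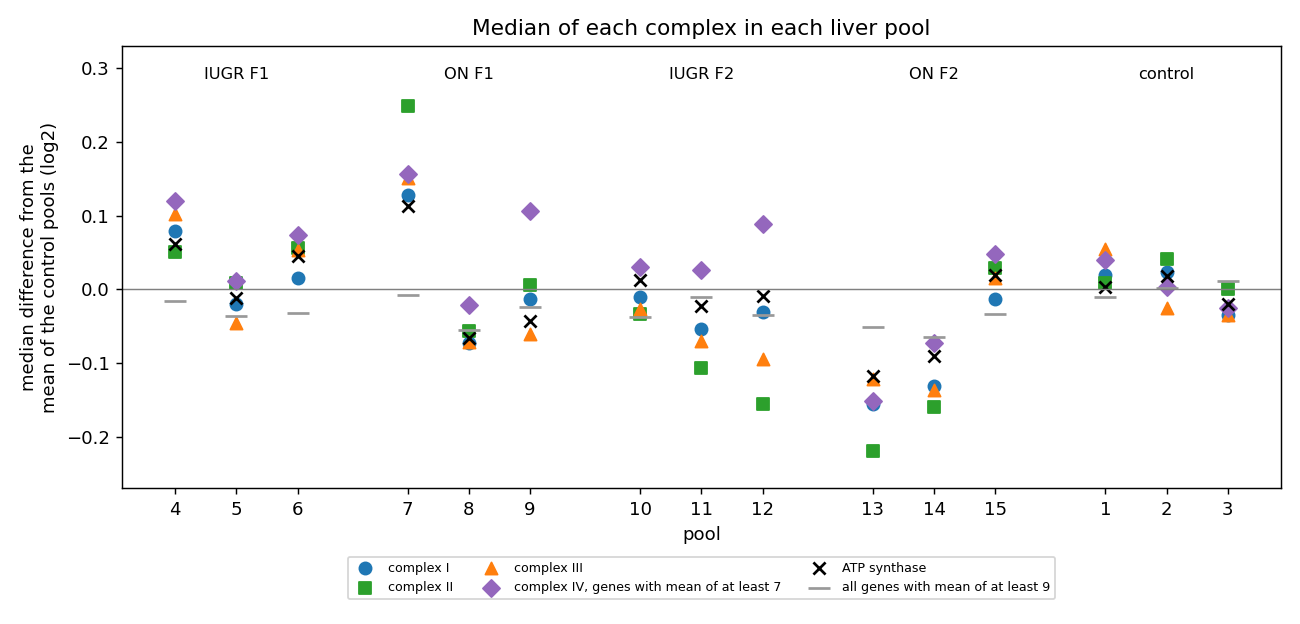
Median log2 difference from the mean of the control pools (vertical axis) for complexes I to IV, the ATP synthase list and all genes with a mean of at least 9, in each pool (horizontal axis) by group. Complexes I to III lie highest in ON F1 pool 7 (median of all 66 genes 0.15) and lowest in ON F2 pools 13 and 14 (-0.15 and -0.11 for all 66), while ON F2 pool 15 lies at 0.04.

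The position of these pools was shared by genes outside the chain's own complexes. The 18 measured genes of ATP synthase, complex V, had medians of 0.11 in pool 7, -0.12 in pool 13, -0.09 in pool 14 and 0.02 in pool 15. Cyc1, the cytochrome c1 subunit of complex III, which the symbols above leave out, stood at 0.12, -0.18, -0.18 and -0.03 in the same order. Genes with a mean of at least 9 as a whole had medians of -0.05 in pool 13 and -0.06 in pool 14. Markers of the time of day also differed between these pools. The clock score, the mean of Dbp, Nr1d1, Tef, Per3 and Ciart less the mean of Arntl and Npas2, was 1.76, 3.50 and -0.46 in pools 13 to 15 and -1.95, -1.44 and -1.21 in pools 7 to 9. The score was also high in control pool 2 (2.40) and IUGR F1 pool 5 (1.84), where the chain's medians were 0.01 and -0.02, the latter the lowest of the IUGR F1 pools. With the score as covariate the members' median in ON F2 against ON F1 pools went from -0.10 to -0.0251. The score did not overlap between ON F1 and ON F2 pools, so the covariate cannot fully separate it from group. A part of the time of day was not tested. Of the score's genes Npas2 passed in ON F2 against ON F1 pools, where it fell by 2.19 ± 0.45 (limma adjusted p = 0.0338).

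**Figure D5:**
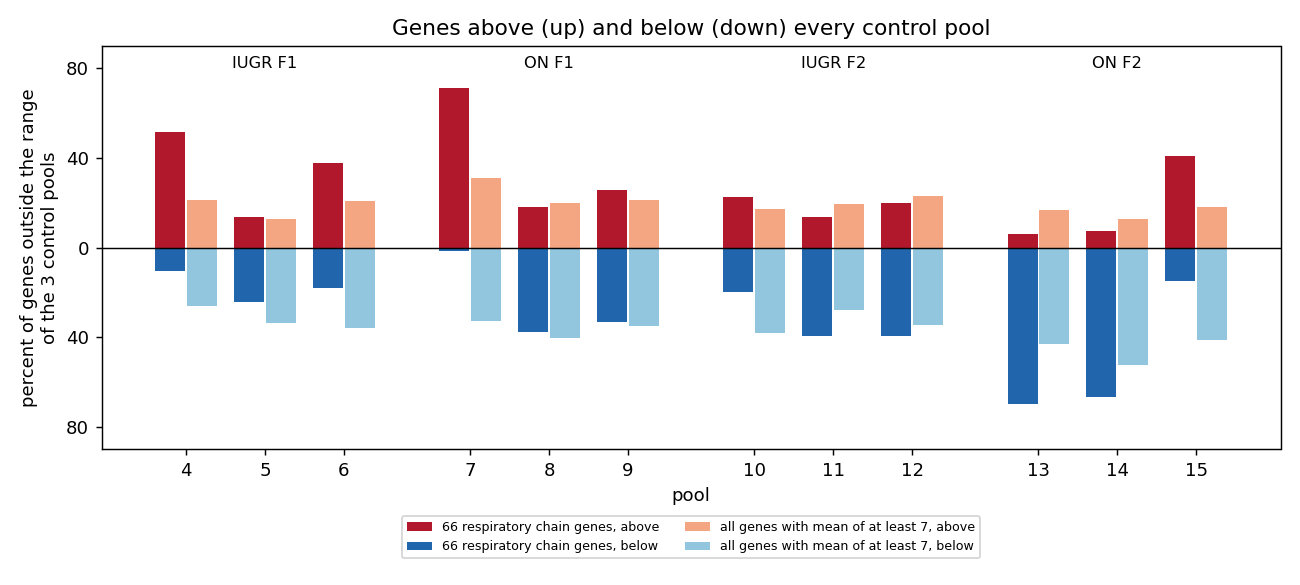
Percent of genes (vertical axis) above (upward bars) and below (downward bars) the range of the 3 control pools in each pool (horizontal axis) of the other groups, for the 66 genes and for the 5730 genes with a mean of at least 7. The 66 genes lie upward in pool 7 (71.2%) and lie downward in pools 13 (69.7%) and 14 (66.7%), while 15.2% lie below in pool 15.

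Other cell types were checked by their markers, as list medians relative to the control mean. All 10 markers of exocrine pancreas were higher in pool 13, with a median of 4.27 (Cela2a was at 10.08 there and at 5.26 and 5.22 in pools 14 and 15), against medians of -0.04 to 0.20 in the other pools. The other ON F2 pools had medians of 0.13 and 0.16, and in them the chain stood at -0.11 and 0.04. The 12 Kupffer cell markers lay between -0.55 and -0.41 in IUGR F1, -0.28 and -0.03 in ON F1, -0.55 and 0.14 in IUGR F2, -0.01 and 0.48 in ON F2, and -0.25 and 0.33 in control pools. Medians of the 10 hepatocyte markers lay between -0.10 and 0.05 in all 15 pools, those of 6 adipocyte markers between -0.10 and 0.21, and those of 4 erythroid markers between -0.14 and 0.18. Skeletal muscle markers were between -0.05 and 0.43, the last in pool 5. The defining hepatocyte gene Alb was between 14.41 and 14.49 in every pool. Whether pancreatic RNA, Kupffer cells or the time of day have a part in the members' values was not tested. In whole liver, fewer cells of a type and less RNA per cell cannot be told apart.

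Genes that build and regulate the chain were counted from lists chosen with results of these data known. Of 44 assembly factors, 33 were lower and 11 higher in ON F2 against ON F1 pools, with a median of -0.14, and 2 passed, where 1.43% of all genes did. The 33 became 28 after median centring. Nubpl, which delivers iron-sulfur clusters to complex I, stood at 7.98, 7.87 and 8.06 in ON F2 pools, against 8.39, 8.30 and 8.36 in ON F1 pools. It fell by 0.38 ± 0.07 on the log2 scale without overlap (limma adjusted p = 0.0284). Coa6, which helps supply copper to complex IV, stood at 8.89, 8.90 and 8.95 in ON F2 pools, against 9.40, 9.23 and 9.17 in ON F1 pools. It also fell without overlap, by 0.35 ± 0.07 (limma adjusted p = 0.0334). Nubpl kept its call in 18 and Coa6 in 15 of 23 alternatives. Those that left out a control or IUGR pool could not move these differences, only the estimate of spread and the adjustment. Both lost it without ON F1 pool 7 (limma adjusted p = 0.0980 for Nubpl and 0.111 for Coa6), without ON F2 pool 13 (0.0679 and 0.0792), without ON F2 pool 14 (0.126 and 0.120), with only those groups fitted (0.171 and 0.191) and with the clock score as covariate (0.365 and 0.405). Coa6 lost it too without ON F1 pool 8 (0.0537), without ON F2 pool 15 (0.0513) and after median centring (0.0512). With the clock score as covariate the differences were -0.35 ± 0.10 for Nubpl and -0.32 ± 0.10 for Coa6, with larger standard errors. Without ON F1 pool 7 they were -0.36 ± 0.08 and -0.29 ± 0.07. Whether the time of day has a part in these differences was not tested. Nubpl was also at 7.95, 7.89 and 7.81 in IUGR F2 pools, against 8.17, 8.26 and 8.34 in IUGR F1 pools, without overlap (-0.37 ± 0.07, limma adjusted p = 0.159). In the F test over the 5 groups Nubpl passed (limma adjusted p = 0.0469).

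No other gene of the lists in these paragraphs passed in a comparison of 2 groups. Of 23 regulators of mitochondrial biogenesis, 12 were higher and 11 lower in ON F2 against ON F1 pools, with a median of 0.007. Among them Nrf1, which encodes NRF1, differed by 0.28 ± 0.10, and Ppargc1b, a coactivator of NRF1, by 0.43 ± 0.17 (limma adjusted p = 0.181). Of 34 genes of mitochondrial mass and the citric acid cycle 11 were higher and 23 lower, with a median of -0.041, which was 0.0025 after median centring. Cs, citrate synthase, often used as a measure of mitochondrial mass, stood at 9.35, 9.46 and 9.89 in ON F2 pools, against 10.06, 10.00 and 10.00 in ON F1 pools. Pools 13 and 14 lay lowest, and the difference was -0.45 ± 0.12 (limma adjusted p = 0.0741). Etfdh, which passes electrons of fat oxidation to the chain, differed by -0.37 ± 0.10 (limma adjusted p = 0.0775). Of the 18 ATP synthase genes 14 were lower, with Atp5g3 at -0.18 ± 0.07 and Atp5d at -0.19 ± 0.07. Of 6 uncoupler and brown fat genes, 5 were lower, with Ucp3 at -0.21 ± 0.09. Ucp3, a dim gene here, differed by 0.49 ± 0.09 in ON F1 (limma adjusted p = 0.0766) and by 0.43 ± 0.09 in IUGR F1 (limma adjusted p = 0.364) against control pools.

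Beyond the generation comparisons the same lists were mixed. Against control, 37 of 44 assembly factors were lower in ON F2 pools (median -0.12), 28 in IUGR F2 pools (-0.057), 21 in ON F1 pools (0.004) and 27 in IUGR F1 pools (-0.025), and 0 passed in each by limma. After median centring these medians were -0.033, -0.008, 0.047 and 0.026. With an unadjusted p under 0.05, 11 were lower and 1 higher in ON F2, 3 and 0 in IUGR F2, 2 and 3 in ON F1, and 0 and 0 in IUGR F1. Of all genes 9.25% and 5.89%, 4.55% and 2.51%, 5.03% and 8.97%, and 2.97% and 5.46% were, in the same order. ATP synthase genes had medians of -0.064 in ON F2, -0.016 in IUGR F2, -0.003 in ON F1 and 0.032 in IUGR F1 against control pools, of which the first 3 were 0.023, 0.033 and 0.040 after median centring.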

How the data were processed

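Per the submitters' processing notes, the authors made log2 expression values per probe set with RMA, which corrects background, quantile-normalizes arrays and summarises probes. No version of RMA is given there. The deposited table of 45101 probe sets was used as it stands. Of these, 64 controls, 9160 without a symbol and 932 with several were left out. The remaining 34945 gave 18193 genes, each read at its probe set with the highest mean over 15 arrays. Differences were fitted in R 4.3.3 with limma 3.58.1, as 1 model of 5 groups on the 15 arrays, with moderated variances, two-sided p-values and the Benjamini-Hochberg adjustment across the 18193 genes. The code was tested on simulated data with known changes. Standard errors rest on 10 residual and 4.69 prior degrees of freedom, and the number of arrays limits the precision. Named were the 6 members with the smallest p in each comparison, the highest and lowest member of each complex and the isoform pairs, and of other lists the genes that passed or the 2 with the smallest p, of which not all are printed. Members and lists were chosen with earlier results of these data known. Alternatives changed probe set choice, filter, moderation, samples, scaling and covariates, and left out each pool.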

Additional observations from a re-analysis of the deposited data

How the results depend on the processing

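No member passed in any comparison when any 1 pool was left out, and Ndufb7 in ON F2 against ON F1 pools was the single member called under any alternative, which gave a count of 1 with the mean of probe sets, among genes with a mean of at least 5 and with a trend in the moderation. The median difference of the members moved by more than the spread of pool medians (0.0682) in 2 cases: to 0.0173 in ON F2 against control pools after median centring, and to -0.0251 in ON F2 against ON F1 pools with the clock score as covariate. This spread exceeded the main medians of all other comparisons in size, so changes of sign there were not counted. Among them were -0.0312 in ON F1 against control and -0.0122 in IUGR F2 against ON F2 pools with the clock score. Another was 0.0234 in IUGR F2 against control pools after median centring. Ndufa10 in IUGR F1 against ON F1 pools turned to -0.0356 with the mean of probe sets. Leaving out each pool in turn, the medians ran between 0.0063 and 0.0537 for IUGR F1, -0.0285 and 0.0597 for ON F1, -0.0432 and -0.0109 for IUGR F2, and -0.1243 and -0.0332 for ON F2 against control, between -0.0853 and -0.0343 for IUGR F2 against IUGR F1, -0.152 and -0.042 for ON F2 against ON F1, -0.0329 and 0.0525 for IUGR F1 against ON F1, and 0.008 and 0.09 for IUGR F2 against ON F2. Counts of members called ran between 0 and 0. The cause was not tested. Restricting the medians to members with a mean of at least 7 was chosen after seeing the data and left the median of all members on the same side of 0 in each of the 8 comparisons of 2 groups. For complex IV alone it turned the median to -0.0563 in ON F2 against control pools and to 0.1026 in IUGR F2 against ON F2 pools. No paired analysis was possible because pool numbers 1 to 15 are not shared between groups. Dim probe sets limit what can be seen of Ndufb4, Cox7c and the tissue-restricted forms.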
